A study of Homo sapiens with 18 samples.

Results

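The genes described here are 46 genes of mitosis, the kinetochore and the spindle. They were taken by symbol from a table of 28277 genes, all 46 were found there, and all 46 passed the filter on low counts that left 14938 genes for testing. They were sorted into 10 roles: the cyclins and CDK1 that start mitosis (5 genes), mitotic kinases (3), the spindle assembly checkpoint (5), the activators of the anaphase-promoting complex with securin and separase (4), the kinetochore and centromere (7), the chromosomal passenger complex (4), kinesins and other spindle proteins (8), condensin, topoisomerase and Ki-67 (6), cytokinesis (2) and transcription factors (2).

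In a dividing cell, CDK1 bound to cyclin A or cyclin B drives entry into mitosis, the spindle assembly checkpoint holds the cell until every kinetochore is attached to the spindle, and the anaphase-promoting complex loaded with CDC20 then marks securin and cyclin B for destruction. Most of these genes are transcribed in G2 phase and mitosis and are silent in resting cells. Their promoters are bound by the DREAM complex, a repressor, in resting cells and by MYBL2 (B-MYB) and FOXM1 in cycling cells, through a short motif called the cell cycle genes homology region (CHR). Oxygen shortage is known to slow the cell cycle of many cell lines.

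The data are RNA-seq counts from OVCAR3-KRAB, an ovarian cancer cell line that carries dCas9-KRAB, in which a catalytically dead Cas9 brings the KRAB repressor domain to the site set by a guide RNA. Each clonal line carried 1 guide: sgCtl (sgControl in the labels), which has a Gal4 promoter as its target, or sgXIST7 or sgXIST9, which are both directed to the promoter of XIST. Every line was cultured in normoxia or kept for 24 h at 1% oxygen (hypoxia), in 3 replicates each, which gave 6 groups and 18 libraries. The labels do not say how many clones of each guide were sequenced, so an effect of the guide, of the clone and of XIST knockdown (KD) cannot be told apart. The study describes the replicates as biological without saying whether they were separate cultures or clones, and p-values measure the spread between these libraries.

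Total counts were 11794375 to 24906936 per library. The targeted gene, XIST, had 1589 to 11209 counts per library in sgCtl, 0 to 5 in sgXIST7 and 357 to 1009 in sgXIST9. Of 15 genes known to be induced by hypoxia, 13 rose in hypoxia in sgCtl and 14 in each KD line. At an adjusted p under 0.01 in edgeR's test, 18.8%, 23.5% and 23.1% of all genes tested were higher in sgCtl, sgXIST7 and sgXIST9. The epithelial markers EPCAM (156 to 251 CPM, the counts scaled to the library size, across the 18 libraries) and KRT18 (130 to 251 CPM) were detected in every library. KRT8 stood at 4.07 to 43.3 CPM and PAX8 at 0.83 to 5.94 CPM. The other epithelial markers were low or absent. WT1 and MSLN stood at 0.69 CPM or less, MUC16 at 0.18 CPM or less and KRT7 at 0.13 CPM or less. SOX17 stood at 0.086 CPM or less and CLDN3 at 0 CPM. Of 5 immune markers, CD68 stood at 10.8 to 55.8 CPM and the others, PTPRC and CD3E among them, at 0.36 CPM or less. Their summed level was 11.4 to 56.0 CPM. The summed level of 5 stromal markers was 1.16 to 3.63 CPM in sgCtl, 69.9 to 308 CPM in sgXIST7 and 33.5 to 73.7 CPM in sgXIST9, with COL1A2 at up to 306 CPM. COL1A1, DCN, LUM and PDGFRB stood at 7.08 CPM or less in every library.

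The promoters of these genes shared sequence features that the choice of genes did not use. RefSeq promoters (GRCh38.p14, 250 bases before to 50 bases after the start site) were matched for 39 of the 46 genes; none was matched for AURKA, BIRC5, BUB3, FOXM1, TPX2, TTK and UBE2C. The CHR letters TTTGAA or TTCGAA, on either strand, were present in 28 of the 39 (71.8%), against 16.6% of 27305 promoters and 11.2% of the 11114 promoters of genes tested. Within 50 bases of the start site they were present in 23 of the 39 (59.0%), against 5.05% of all promoters. CCAAT, the motif of NF-Y, was present on either strand in 27 (69.2%), against 35.7%, and 16 (41.0%) held both CHR letters within 50 bases of the start site and CCAAT, against 2.04%. The letters describe the sequence and are not evidence of binding.

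The promoters printed here belong to the 4 genes with the most negative mean log2 fold change in hypoxia over the 3 lines, among those with CHR letters anywhere in the promoter. In CDK1, CDC20, KIF23, SMC4 and TOP2A, the letters were present but not within 50 bases of the start site. Each runs from 120 bases before to 30 bases after the start site, read on the strand of the gene, with the CHR letters in capitals. CENPA (chr2:26785936-26786085, plus strand) has its CHR at -18, counted from the start site, SPC25 (chr2:168890401-168890550, minus strand) at -3, BUB1B (chr15:40160949-40161098, plus strand) at -23, and NDC80 (chr18:2571437-2571586, plus strand) has 2 that adjoin, the first on the opposite strand at -3 and the second at 4.
CENPA: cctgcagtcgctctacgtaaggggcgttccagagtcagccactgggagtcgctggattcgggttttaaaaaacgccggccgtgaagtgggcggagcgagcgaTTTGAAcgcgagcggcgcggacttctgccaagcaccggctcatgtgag
SPC25: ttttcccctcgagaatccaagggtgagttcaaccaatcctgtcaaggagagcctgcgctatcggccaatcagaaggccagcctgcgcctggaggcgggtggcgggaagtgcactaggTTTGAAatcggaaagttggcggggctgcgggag
NDC80: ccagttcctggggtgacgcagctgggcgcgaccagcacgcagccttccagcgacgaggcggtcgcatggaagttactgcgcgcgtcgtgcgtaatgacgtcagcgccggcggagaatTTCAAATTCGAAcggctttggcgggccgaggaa
BUB1B: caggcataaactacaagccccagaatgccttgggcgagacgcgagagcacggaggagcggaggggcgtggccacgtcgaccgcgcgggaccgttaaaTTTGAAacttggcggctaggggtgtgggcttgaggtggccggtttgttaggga

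SPC25 had few counts and did not pass the threshold in any line. The mean log2 fold change over the 3 lines had a median of -1.79 (range -2.62 to -0.93) over the 23 genes with CHR letters within 50 bases of the start site, and of -2.07 (range -2.59 to -1.41) over the 16 without. The ranges overlapped.

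In hypoxia the mitosis genes fell together in every line. Their summed level, which scales each library by the TMM method, was 8266, 7883 and 8375 CPM in the sgCtl libraries in normoxia and 3087, 3631 and 2782 CPM in hypoxia, which is 38.7% of the normoxia mean. In sgXIST7 it was 7730, 7365 and 7405 CPM in normoxia and 2113, 1832 and 2418 CPM in hypoxia (28.3%). In sgXIST9 it was 7401, 7437 and 7232 CPM in normoxia and 1748, 1842 and 1469 CPM in hypoxia (22.9%). All 6 KD libraries lay below the lowest sgCtl library at both oxygen levels: at 7232 to 7730 CPM against 7883 CPM or more in normoxia, and at 1469 to 2418 CPM against 2782 CPM or more in hypoxia. Without TOP2A and MKI67 the lines overlapped in normoxia, at 6510 to 7291 CPM in sgCtl and 6028 to 6794 CPM in the KD lines. In hypoxia they stayed apart without these genes, at 2476 CPM or more in sgCtl against 2198 CPM or less. In bulk RNA, fewer cells in G2 phase or mitosis and less RNA of these genes per cell cannot be told apart.

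**Figure D1:**
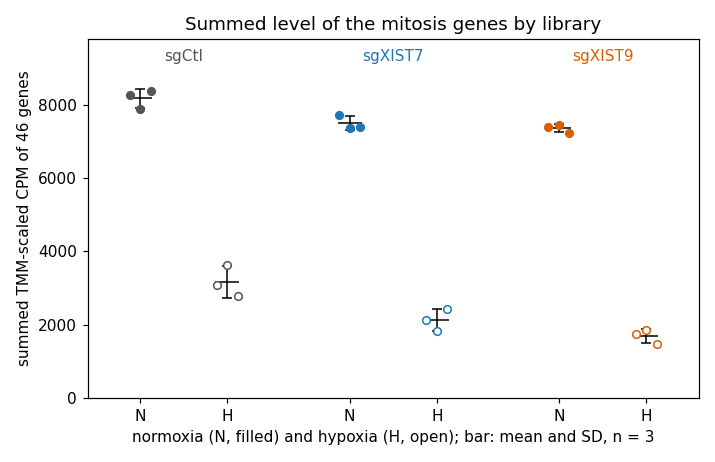
Summed TMM-scaled CPM (y axis) of the 46 mitosis genes in each of the 18 libraries, by line and oxygen (x axis; N normoxia, filled; H hypoxia, open), with the mean and SD of 3 libraries as bars. All hypoxia libraries lie between 1469 and 3631 CPM and all normoxia libraries between 7232 and 8375 CPM.

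The threshold for calling a gene was an adjusted p-value under 0.01 in edgeR's quasi-likelihood test (Benjamini-Hochberg over the 14938 genes tested), and fold changes are given on the log2 scale with their standard error. In sgCtl, 44 of the 46 genes were lower in hypoxia and 0 higher, where 18.8% of all genes tested were called lower and 18.8% higher. The median log2 fold change was -1.30, against 0.02 over all genes tested. In sgXIST7, 45 were lower and 0 higher (background 23.2% lower and 23.5% higher), with a median of -1.93. In sgXIST9, 45 were lower and 0 higher (background 19% lower and 23.1% higher), with a median of -2.17. A fall by more than 1 on the log2 scale was called for 40, 43 and 44 genes in sgCtl, sgXIST7 and sgXIST9, against a background of 8.49%, 12.2% and 8.58%. For all 46 genes and in all 3 lines, each hypoxia library lay below each normoxia library, which was so for 28.1%, 32.1% and 30.8% of all genes tested.

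RN7SL1, an abundant noncoding RNA of the signal recognition particle, took 3.0 to 4.99% of the counts in normoxia and 5.05 to 8.13% in hypoxia; its part in the fall of the mitosis genes was not tested. Without the third library of each hypoxia group, 43, 45 and 45 genes were called lower in sgCtl, sgXIST7 and sgXIST9.

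CDK1 and the cyclins fell in all lines. CDK1, the kinase that drives entry into mitosis (chromosome 10, 60778331 to 60794852, plus strand, hg38 as are all gene positions here), stood at 256, 215 and 263 CPM in normoxia and 114, 105 and 98.6 CPM in hypoxia in sgCtl. It stood at 188, 137 and 172 CPM in normoxia and 56.1, 48.4 and 61.1 CPM in hypoxia in sgXIST7 and at 198, 202 and 197 CPM in normoxia and 49.6, 50.9 and 35.9 CPM in hypoxia in sgXIST9. Both KD lines were below sgCtl in hypoxia in every library, and their hypoxia libraries lay between 35.9 and 61.1 CPM. The log2 fold changes in hypoxia were -1.21 ± 0.14 (adjusted p = 3e-06) in sgCtl, -1.59 ± 0.14 (adjusted p = 9.2e-08) in sgXIST7 and -2.13 ± 0.15 (adjusted p = 5.9e-09) in sgXIST9.

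CCNB1 encodes cyclin B1, the partner of CDK1 in mitosis (chromosome 5, 69167010 to 69178243, plus strand). It stood at 270.2, 227 and 287 CPM in normoxia and 116, 163 and 71.4 CPM in hypoxia in sgCtl. It stood at 246, 199.9 and 255 CPM in normoxia and 78.0, 56.6 and 61.1 CPM in hypoxia in sgXIST7 and at 262, 266 and 253 CPM in normoxia and 61.9, 78.7 and 45.6 CPM in hypoxia in sgXIST9. The 3 sgCtl libraries in hypoxia were widely spread, and the lowest of them lay within the range of the KD lines. CCNB1 fell with log2 fold changes of -1.16 ± 0.23 in sgCtl (adjusted p = 0.00056), of -1.84 ± 0.24 in sgXIST7 (adjusted p = 4.8e-06) and of -2.07 ± 0.24 in sgXIST9 (adjusted p = 1.9e-06). CCNA2 (cyclin A2, active in S phase and early mitosis) had the largest fall of this role, with log2 fold changes of -1.69, -2.50 and -2.88 in sgCtl, sgXIST7 and sgXIST9. CCNB2 (cyclin B2) and CDC25C, the phosphatase that activates CDK1, fell in each line, with log2 fold changes from -1.32 to -1.86 and from -1.13 to -1.70.

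Among the mitotic kinases, PLK1, which acts on centrosomes, kinetochores and cytokinesis (chromosome 16, 23678889 to 23690367, plus strand), stood at 87.0, 90.7 and 102 CPM in normoxia and 35.2, 60.0 and 21.4 CPM in hypoxia in sgCtl. Its sgXIST7 libraries stood at 83.2, 89.8 and 88.9 CPM in normoxia and 21.6, 15.5 and 24.1 CPM in hypoxia, and its sgXIST9 libraries at 88.3, 102 and 94.0 CPM in normoxia and 13.5, 19.8 and 11.4 CPM in hypoxia. The 3 lines overlapped in normoxia, and in hypoxia the lowest sgCtl library lay within the range of sgXIST7. The log2 fold changes were -1.25 ± 0.27 in sgCtl (adjusted p = 0.00083), -2.11 ± 0.27 in sgXIST7 (adjusted p = 5e-06) and -2.66 ± 0.28 in sgXIST9 (adjusted p = 6.2e-07).

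AURKA (Aurora A, the kinase of spindle poles; chromosome 20, 56369389 to 56392337, minus strand) had the same order of lines. In sgCtl it stood at 91.0, 79.5 and 94.5 CPM in normoxia and 49.3, 56.9 and 30.5 CPM in hypoxia. Its levels were 97.2, 81.1 and 94.2 CPM in normoxia and 28.4, 23.1 and 29.7 CPM in hypoxia in sgXIST7 and 97.7, 102 and 98.6 CPM in normoxia and 22.5, 28.8 and 16.5 CPM in hypoxia in sgXIST9. Every KD library in hypoxia was below every sgCtl library in hypoxia. The log2 fold change was -0.95 ± 0.20 in sgCtl, -1.75 ± 0.20 in sgXIST7 and -2.14 ± 0.21 in sgXIST9 (adjusted p = 0.00074, 1.4e-06 and 2.2e-07). PLK4, which starts centriole duplication, fell with log2 fold changes of -1.08, -1.49 and -1.76.

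**Figure D2:**
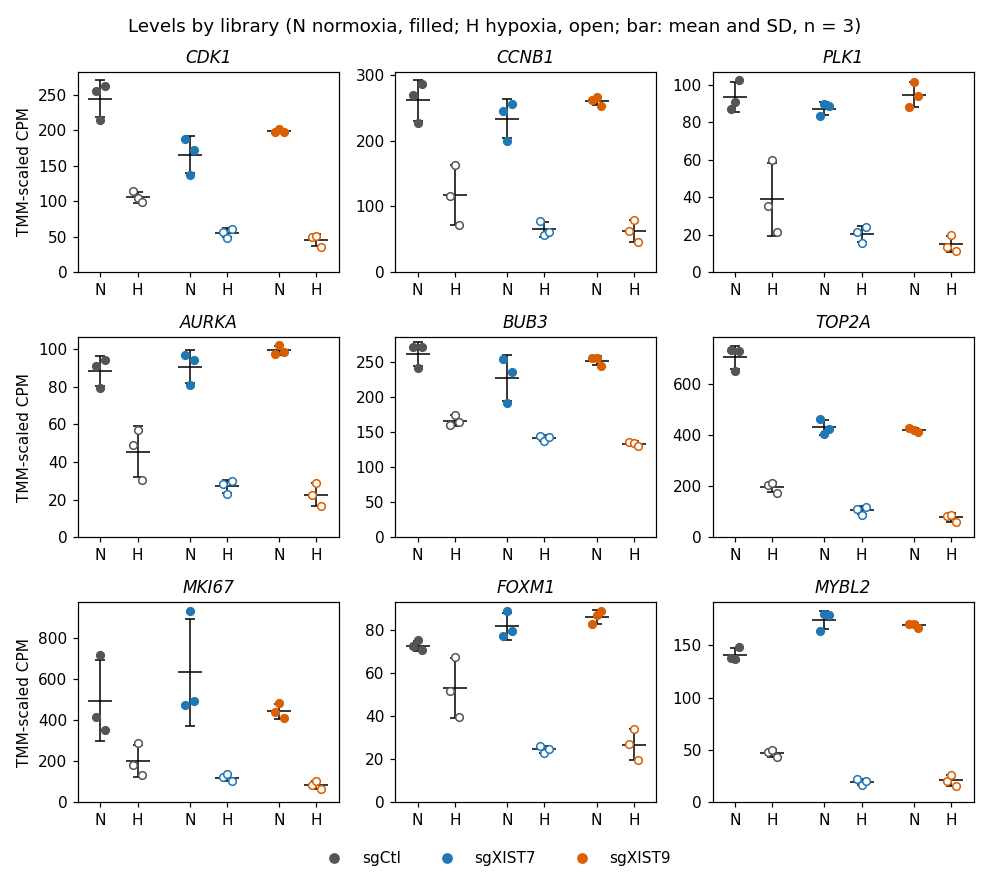
TMM-scaled CPM (y axis) of 9 mitosis genes in each library, by line and oxygen (x axis; N normoxia, filled; H hypoxia, open), with the mean and SD of 3 libraries as bars. BUB3 in hypoxia stays at 130 CPM or more in every library, while MYBL2 lies between 137 and 180 CPM in normoxia and between 15.9 and 49.9 CPM in hypoxia.

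All 5 checkpoint genes fell in each line, by unequal amounts. BUB3, a checkpoint protein that is also present outside mitosis (chromosome 10, 123154244 to 123170467, plus strand), was at 272, 242 and 272 CPM in normoxia and 159.9, 175 and 165 CPM in hypoxia in sgCtl. It was at 255, 192 and 237 CPM in normoxia and 145, 138 and 144 CPM in hypoxia in sgXIST7 and at 256, 257 and 245 CPM in normoxia and 136, 135 and 130.3 CPM in hypoxia in sgXIST9. Groups did not overlap between normoxia and hypoxia, but its hypoxia libraries kept 130 to 175 CPM. Its log2 fold changes, -0.65 ± 0.10, -0.68 ± 0.10 and -0.92 ± 0.10 (adjusted p = 4.3e-05, 1.7e-05 and 9.1e-07), were among the smallest of the 46 in each line.

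BUB1B (BUBR1, a part of the complex that inhibits CDC20; chromosome 15, 40161009 to 40221136, plus strand) had the largest fall of the checkpoint genes in each line. Its levels were 175, 165 and 184 CPM in normoxia and 39.4, 44.7 and 43.7 CPM in hypoxia in sgCtl. They were 146, 136 and 147 CPM in normoxia and 26.4, 24.6 and 30.5 CPM in hypoxia in sgXIST7 and 150.1, 156 and 152 CPM in normoxia and 27.3, 24.2 and 24.0 CPM in hypoxia in sgXIST9. The replicates were close to each other in all 6 groups. BUB1B fell with log2 fold changes of -2.03 ± 0.10 in sgCtl (adjusted p = 2.7e-10), of -2.40 ± 0.10 in sgXIST7 (adjusted p = 3.5e-11) and of -2.60 ± 0.10 in sgXIST9 (adjusted p = 1.6e-11).

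BUB1, the kinase that recruits the checkpoint to kinetochores (chromosome 2, 110637528 to 110678107, minus strand), was at 196, 183 and 211 CPM in normoxia and 66.6, 68.3 and 82.4 CPM in hypoxia in sgCtl. It was at 122, 125 and 132 CPM in normoxia and 33.7, 49.5 and 58.4 CPM in hypoxia in sgXIST7 and at 123, 129 and 124 CPM in normoxia and 34.7, 29.8 and 36.6 CPM in hypoxia in sgXIST9. Both KD lines were below sgCtl in every library in normoxia as well as in hypoxia. The log2 fold changes in hypoxia were -1.44 ± 0.15, -1.43 ± 0.15 and -1.89 ± 0.15 in sgCtl, sgXIST7 and sgXIST9 (adjusted p = 8.8e-07, 5.6e-07 and 3.7e-08). MAD2L1 (MAD2, which binds and blocks CDC20) fell with log2 fold changes of -1.63, -1.84 and -2.40, and TTK (MPS1, the kinase that starts checkpoint signalling) had -1.39, -2.06 and -2.14.

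All 4 genes around the anaphase-promoting complex fell in each line. CDC20, its activator in mitosis (chromosome 1, 43358981 to 43363202, plus strand), was at 178, 173 and 198 CPM in normoxia and 68.7, 107 and 31.1 CPM in hypoxia in sgCtl. It was at 168, 162 and 176 CPM in normoxia and 33.4, 22.4 and 36.9 CPM in hypoxia in sgXIST7 and at 171, 174 and 167 CPM in normoxia and 18, 25.8 and 15.3 CPM in hypoxia in sgXIST9. The lines were alike in normoxia within 162 and 198 CPM and ranged from 15.3 to 107 CPM in hypoxia. CDC20 had the largest called fall of the 46 in sgXIST9, -3.11 ± 0.32 (adjusted p = 4.2e-07). It fell with log2 fold changes of -2.46 ± 0.31 in sgXIST7 (adjusted p = 3.2e-06) and of -1.41 ± 0.29 in sgCtl (adjusted p = 0.00078).

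PTTG1 encodes securin, the inhibitor of separase (chromosome 5, 160421855 to 160428744, plus strand). It has near-identical copies elsewhere in the genome, so that its reads may be shared with them. Its levels were 109, 84.8 and 107 CPM in normoxia and 20.6, 24.7 and 17.4 CPM in hypoxia in sgCtl. They were 119, 82.6 and 113 CPM in normoxia and 17.1, 15.1 and 24.0 CPM in hypoxia in sgXIST7 and 119, 108 and 116 CPM in normoxia and 14.7, 14.5 and 17.9 CPM in hypoxia in sgXIST9. The 3 lines overlapped in both conditions. PTTG1 had the largest called fall in sgCtl, -2.25 ± 0.18 (adjusted p = 5.5e-08), beside -2.50 ± 0.19 in sgXIST7 and -2.87 ± 0.19 in sgXIST9 (adjusted p = 9e-09 and 3.5e-09). ESPL1, separase itself, fell with log2 fold changes of -1.43, -2.48 and -2.41, and UBE2C, the ubiquitin-conjugating enzyme of the complex, of -1.25, -1.73 and -2.13.

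At the kinetochore, 6 of 7 genes were called lower in each line. CENPA, the histone H3 variant that marks centromeres (chromosome 2, 26786015 to 26794587, plus strand), was at 22.9, 21.7 and 24.9 CPM in normoxia and 6.56, 7.69 and 3.90 CPM in hypoxia in sgCtl. It was at 27.2, 22.8 and 25.5 CPM in normoxia and 3.25, 3.04 and 3.80 CPM in hypoxia in sgXIST7 and at 24.8, 24.1 and 23.9 CPM in normoxia and 3.05, 3.63 and 2.15 CPM in hypoxia in sgXIST9. The lines overlapped in normoxia, and all 6 KD libraries in hypoxia were at 3.80 CPM or less, below the 3 of sgCtl. Log2 fold changes were -1.91 ± 0.20 in sgCtl, -2.92 ± 0.21 in sgXIST7 and -3.03 ± 0.21 in sgXIST9 (adjusted p = 9.1e-07, 7.4e-09 and 6.9e-09).

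NDC80, the subunit that binds microtubules and gives its name to the NDC80 complex (chromosome 18, 2571557 to 2616635, plus strand), was at 88.2, 73.7 and 86.5 CPM in normoxia and 19.4, 17.8 and 20.6 CPM in hypoxia in sgCtl. It was at 88.0, 72.5 and 81.3 CPM in normoxia and 16.1, 13.7 and 18.8 CPM in hypoxia in sgXIST7 and at 84.9, 81.3 and 87.4 CPM in normoxia and 14.0, 17.6 and 8.33 CPM in hypoxia in sgXIST9. Its hypoxia libraries ran from 8.33 to 20.6 CPM over the 3 lines. The log2 fold changes, -2.11 ± 0.19 in sgCtl, -2.32 ± 0.19 in sgXIST7 and -2.66 ± 0.19 in sgXIST9 (adjusted p = 1.7e-07, 3.1e-08 and 1.1e-08) differed less between lines than those of CENPA. NUF2 and SPC24, which belong to the same complex, fell with log2 fold changes of -1.65, -1.59 and -2.13, and of -1.05, -1.47 and -1.71.

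SPC25, the remaining subunit, had few counts and was not called in any line (log2 fold change -2.53 ± 0.79, -2.55 ± 0.80 and -2.36 ± 0.78; adjusted p = 0.014, 0.011 and 0.016). In normoxia it stood at 3.49, 3.71 and 10.2 CPM in sgCtl, at 2.90, 9.94 and 1.70 in sgXIST7 and at 2.32, 2.12 and 9.69 in sgXIST9, so that 1 library of each group was near 10 CPM and the others below 4. Its exons are listed on 2 contigs, and reads that match both may have been left out of its count. CENPE, a kinesin of the kinetochore, fell with log2 fold changes of -1.70, -2.09 and -2.33. CENPF, a large kinetochore protein, fell with log2 fold changes of -1.55, -1.30 and -1.81, the smallest of these in sgXIST7, where the libraries in hypoxia stood at 216, 226 and 414 CPM.

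The chromosomal passenger complex corrects wrong attachments of chromosomes and steers cytokinesis. Its kinase AURKB (Aurora B; chromosome 17, 8204731 to 8210575, minus strand) was at 59.6, 58.2 and 62.1 CPM in normoxia and 15.1, 22.5 and 15.5 CPM in hypoxia in sgCtl. It was at 67.4, 66.2 and 63.4 CPM in normoxia and 11.8, 8.74 and 9.76 CPM in hypoxia in sgXIST7 and at 76.7, 86.3 and 73.1 CPM in normoxia and 11.1, 12.6 and 7.07 CPM in hypoxia in sgXIST9. The KD lines were above sgCtl in normoxia and below it in hypoxia in all libraries. The hypoxia fold changes were -1.75 ± 0.18, -2.70 ± 0.19 and -2.93 ± 0.19 (adjusted p = 7.6e-07, 5.1e-09 and 3.1e-09). The other subunits followed the same order, with log2 fold changes in sgCtl, sgXIST7 and sgXIST9 of -1.04, -1.93 and -2.08 for INCENP, the scaffold, of -1.21, -2.21 and -2.67 for BIRC5 (survivin), and of -1.22, -2.20 and -2.63 for CDCA8 (borealin).

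All 8 kinesins and spindle proteins fell in each line. KIF23, a motor of the central spindle, had the largest fall of this role in each line, with -1.74 ± 0.14 in sgCtl, -2.42 ± 0.15 in sgXIST7 and -2.71 ± 0.15 in sgXIST9. KIF11 (Eg5), which separates the spindle poles, fell with log2 fold changes of -1.40, -1.68 and -1.90, and KIF18A, which limits chromosome oscillation, had the smallest of this role, -0.84, -1.14 and -1.16. TPX2, which activates Aurora A on the spindle, fell with log2 fold changes of -1.08, -2.11 and -2.23. KIF2C, KIF20A and PRC1 fell with log2 fold changes between -1.09 and -2.33 in the 3 lines. KIF4A, a chromosome motor, is the only one of the 46 on the X chromosome (chromosome X, 70290104 to 70420886, plus strand), and fell with log2 fold changes of -1.09, -1.85 and -2.02. The cytokinesis genes ANLN (anillin) and ECT2, the activator of RHOA, fell with log2 fold changes of -1.53 and -1.09 in sgCtl, -2.46 and -1.92 in sgXIST7, and -2.64 and -2.18 in sgXIST9.

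Per kilobase of exon, TOP2A had the highest level of the 46 in sgCtl in normoxia (124 RPKM), followed by CCNB1 (121) and CDC20 (111), and SPC25 the lowest (2.16). TOP2A encodes topoisomerase II alpha, which untangles sister chromatids (chromosome 17, 40388525 to 40417896, minus strand). Its levels were 733, 654 and 732 CPM in normoxia and 204, 211 and 173 CPM in hypoxia in sgCtl. They were 463, 406 and 424 CPM in normoxia and 112, 87.2 and 118 CPM in hypoxia in sgXIST7 and 429, 419 and 413 CPM in normoxia and 84.6, 88.0 and 58.6 CPM in hypoxia in sgXIST9. Every sgCtl library lay above every KD library at the same oxygen level, and the KD lines overlapped. TOP2A fell in hypoxia with log2 fold changes of -1.85 ± 0.15 in sgCtl, -2.03 ± 0.15 in sgXIST7 and -2.45 ± 0.15 in sgXIST9 (adjusted p = 3.9e-08, 6.8e-09 and 1.7e-09).

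MKI67, the gene of the proliferation marker Ki-67 (chromosome 10, 128096661 to 128126423, minus strand), varied widely between replicates. It was at 415, 718 and 352 CPM in normoxia and 183, 288 and 132 CPM in hypoxia in sgCtl. It was at 473, 931 and 493 CPM in normoxia and 121, 138 and 102 CPM in hypoxia in sgXIST7 and at 439, 481 and 409 CPM in normoxia and 85.8, 102 and 64.8 CPM in hypoxia in sgXIST9. The second library was the highest of its group in all 6. The log2 fold changes were -1.30 ± 0.31 in sgCtl (adjusted p = 0.0021), -2.40 ± 0.32 in sgXIST7 and -2.39 ± 0.32 in sgXIST9 (adjusted p = 6.5e-06 and 8.6e-06). The call in sgCtl was lost without the second normoxia library (-0.93, adjusted p = 0.019), the first hypoxia library (-1.23, adjusted p = 0.012) or the third (-1.07, adjusted p = 0.014).

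NCAPH, the kleisin subunit of condensin I (chromosome 2, 96335766 to 96377091, plus strand), was at 116, 113 and 121 CPM in normoxia and 31.8, 35.1 and 39.7 CPM in hypoxia in sgCtl. It was at 67.3, 66.5 and 67.8 CPM in normoxia and 13.5, 13.4 and 18 CPM in hypoxia in sgXIST7 and at 80.0, 84.8 and 76.7 CPM in normoxia and 16.9, 13.5 and 11.8 CPM in hypoxia in sgXIST9. No KD library overlapped sgCtl in either condition. The fold changes in hypoxia were -1.71 ± 0.13, -2.18 ± 0.14 and -2.51 ± 0.14 (adjusted p = 3.5e-08, 1.8e-09 and 7.1e-10). NCAPG, of the same complex, fell with log2 fold changes of -1.05, -1.46 and -1.78. SMC4 and SMC2, the ATPase core of both condensins, fell with log2 fold changes of -1.28, -1.51 and -1.74, and of -1.0, -0.61 and -1.18. The SMC2 call in sgXIST7 was lost without the first normoxia library (adjusted p = 0.016) or the first or second hypoxia library (adjusted p = 0.02 and 0.024).

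Of the transcription factors, MYBL2, which joins the MuvB core to activate G2 and M phase genes (chromosome 20, 43667019 to 43716496, plus strand), was at 138, 137 and 148 CPM in normoxia and 47.8, 49.9 and 43.1 CPM in hypoxia in sgCtl. It was at 164, 180.0 and 179 CPM in normoxia and 22.2, 16.6 and 20.2 CPM in hypoxia in sgXIST7 and at 170.3, 170.4 and 167 CPM in normoxia and 20.7, 25.7 and 15.9 CPM in hypoxia in sgXIST9. Both KD lines were above sgCtl in every normoxia library and below it in every hypoxia library. MYBL2 had the largest fall of the 46 in sgXIST7, -3.15 ± 0.15 (adjusted p = 1.2e-10), with -3.02 ± 0.15 in sgXIST9 (adjusted p = 1.7e-10) and -1.58 ± 0.14 in sgCtl (adjusted p = 1.3e-07).

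FOXM1, the forkhead factor of G2 and M phase genes (chromosome 12, 2857680 to 2877174, minus strand), was at 72.2, 75.1 and 70.4 CPM in normoxia and 51.6, 67.5 and 39.7 CPM in hypoxia in sgCtl. It was at 76.9, 88.5 and 79.4 CPM in normoxia and 26.1, 22.8 and 24.5 CPM in hypoxia in sgXIST7 and at 82.5, 86.8 and 88.9 CPM in normoxia and 26.9, 33.9 and 19.4 CPM in hypoxia in sgXIST9. The highest sgCtl library in hypoxia came close to the lowest in normoxia. The difference in sgCtl did not pass the threshold (log2 fold change -0.45 ± 0.18, adjusted p = 0.04), and passed it without the second hypoxia library (-0.67, adjusted p = 0.0051). FOXM1 fell with log2 fold changes of -1.74 ± 0.18 in sgXIST7 (adjusted p = 4.3e-07) and of -1.68 ± 0.18 in sgXIST9 (adjusted p = 7.5e-07).

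**Figure D3:**
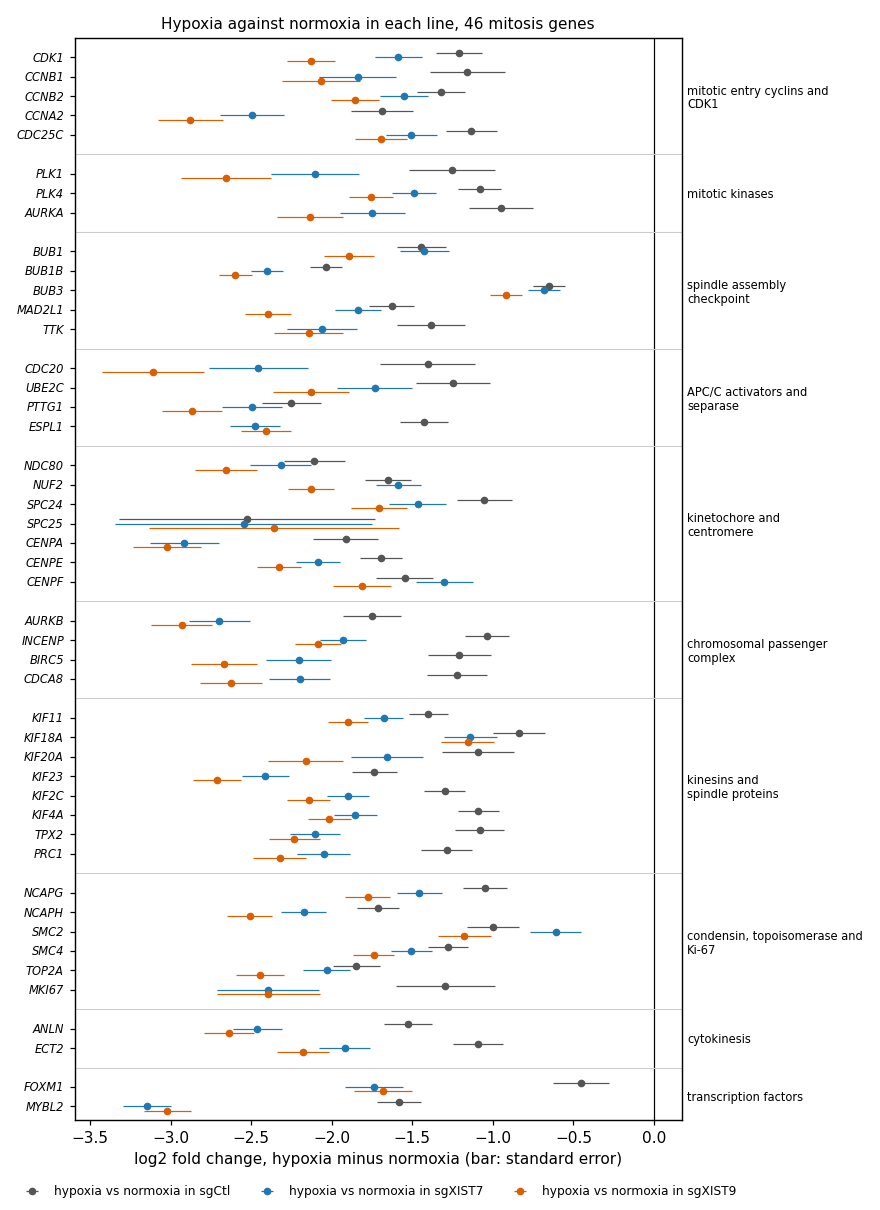
Log2 fold change of each of the 46 genes in hypoxia against normoxia (x axis; bars are the standard error) in sgCtl, sgXIST7 and sgXIST9, with the genes sorted by role (y axis). All points lie below 0, from -3.15 (MYBL2 in sgXIST7) to -0.45 (FOXM1 in sgCtl).

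The next question was whether the KD lines differed from sgCtl at the same oxygen level. In normoxia few of the mitosis genes did. In sgXIST7, 4 of 46 were lower and 0 higher (background 6.1% lower and 7.39% higher), and the median log2 fold change was -0.11. In sgXIST9, 3 were lower and 0 higher (background 6.6% lower and 6.51% higher), with a median of -0.05. In the fit of only the groups compared, 10 genes were called in sgXIST9, 6 lower and 4 higher. The share of all genes called in that fit was not counted. In the fit of all groups, none of the called genes changed by more than 1 on the log2 scale. Both comparisons share the sgCtl libraries.

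The genes called in normoxia were NCAPH, TOP2A and BUB1 in both lines, and CDK1 in sgXIST7. NCAPH fell with log2 fold changes of -0.79 ± 0.13 in sgXIST7 (adjusted p = 2e-04) and of -0.53 ± 0.13 in sgXIST9 (adjusted p = 0.0059). TOP2A fell with log2 fold changes of -0.71 ± 0.14 in sgXIST7 (adjusted p = 0.0012) and of -0.75 ± 0.14 in sgXIST9 (adjusted p = 0.00083). The differences for BUB1 were -0.64 ± 0.15 and -0.66 ± 0.15 (adjusted p = 0.0044 and 0.0037). CDK1 was lower, at -0.56 ± 0.14 in sgXIST7 (adjusted p = 0.0073) and stood at -0.30 ± 0.14 in sgXIST9 (adjusted p = 0.15). The calls that remained whichever library was left out were NCAPH and TOP2A in sgXIST7 and TOP2A in sgXIST9. The count fell to 2 in sgXIST7 without the first or the third sgCtl library or the second or the third sgXIST7 library, and to 1 in sgXIST9 without the first or the third sgCtl library or any 1 of the sgXIST9 libraries.

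Other genes in normoxia did not pass the threshold. The values were -0.16 ± 0.23 and -0.01 ± 0.23 for CCNB1 in sgXIST7 and sgXIST9, -0.10 ± 0.26 and 0.02 ± 0.26 for PLK1, and 0.04 ± 0.19 and 0.17 ± 0.19 for AURKA. BUB3 was at -0.20 ± 0.10 and -0.05 ± 0.10, MKI67 at 0.35 ± 0.30 and -0.16 ± 0.30, and FOXM1 at 0.17 ± 0.17 and 0.25 ± 0.17. MYBL2, whose libraries did not overlap with those of sgCtl, was at 0.31 ± 0.14 and 0.26 ± 0.14 (adjusted p = 0.12 and 0.19). The X-linked KIF4A was at -0.12 ± 0.13 and -0.15 ± 0.13 (adjusted p = 0.58 and 0.45).

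In hypoxia most of the mitosis genes were lower in the KD lines than in sgCtl. In sgXIST7, 33 of 46 were lower and 0 higher (background 13.7% lower and 13.9% higher), with a median log2 fold change of -0.75. In sgXIST9, 36 were lower and 0 higher (background 8.24% lower and 9.65% higher), with a median of -0.89. The fall was larger than 1 on the log2 scale for 5 genes in sgXIST7 and 21 in sgXIST9 (background 6.19% and 3.39%). KD libraries lay wholly below those of sgCtl for 32 genes in sgXIST7 and 40 in sgXIST9, against 20.2% and 16.2% of all genes tested. Both comparisons use the same 3 sgCtl libraries in hypoxia. The summed stromal markers were also higher in the KD lines in hypoxia. The sum was 37.0 CPM or more, against 3.63 CPM or less in sgCtl. Of these markers COL1A2 reached 306 CPM, and COL1A1, DCN, LUM and PDGFRB stood at 7.08 CPM or less in every library. The part of these markers in the difference between lines was not tested.

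These counts rested on few libraries. In sgXIST7 the count was 16 without its second hypoxia library, in which 43 of the 46 genes had their lowest value of the group, and 19 without the second sgCtl library, in which 34 had their highest. In sgXIST9 it was 29 to 39 with each library left out. Without the third library of each hypoxia group, 36 genes were lower in sgXIST7 and 36 in sgXIST9. In fits of only the 2 groups compared, 6 and 11 genes were called, with medians of -0.74 and -0.89. The shares of all genes called in these fits were not counted. The calls that held with each library left out in turn were 15 in sgXIST7 and 27 in sgXIST9.

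MYBL2, NCAPH and CDC20 had the largest called falls in sgXIST7 against sgCtl in hypoxia. MYBL2 was lower, at -1.26 ± 0.14 in sgXIST7 (adjusted p = 3.3e-06) and at -1.17 ± 0.14 in sgXIST9 (adjusted p = 8.1e-06). NCAPH was lower, at -1.26 ± 0.14 and -1.33 ± 0.14 (adjusted p = 2.2e-06 and 1.4e-06). CDC20 was lower, at -1.17 ± 0.30 and -1.81 ± 0.30 (adjusted p = 0.005 and 0.00024), the latter the largest of the 46 in sgXIST9. The CDC20 call in sgXIST7 was lost without the first or second sgCtl library (adjusted p = 0.014 and 0.05) or the first or second sgXIST7 library (adjusted p = 0.011 and 0.032).

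PLK1 and TOP2A followed CDC20 in sgXIST9. PLK1 was lower, at -1.39 ± 0.27 in sgXIST9 (adjusted p = 0.00095) and at -0.95 ± 0.27 in sgXIST7 (adjusted p = 0.0096), where removing any 1 of 5 libraries ended the call; without the second sgCtl library the value was -0.49 (adjusted p = 0.11). TOP2A was lower, at -0.89 ± 0.14 and -1.35 ± 0.14 (adjusted p = 0.00011 and 2.3e-06) in sgXIST7 and sgXIST9. CDK1 was lower, at -0.94 ± 0.14 and -1.22 ± 0.14 (adjusted p = 7.4e-05 and 7e-06), as was FOXM1, at -1.12 ± 0.18 and -0.99 ± 0.18 (adjusted p = 0.00012 and 0.00046).

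By role, both transcription factors, all 4 passenger complex genes, all 3 kinases and both cytokinesis genes were called lower in each KD line. Not all of these calls held with each library left out in turn. Those of PLK1, PLK4, AURKA, AURKB, CDCA8 and ANLN were lost in sgXIST7, and that of AURKB in sgXIST9. Of the 8 kinesins and spindle proteins 7 were called in each, of the 5 entry genes 4, and of the 5 checkpoint genes 3 in sgXIST7 and 4 in sgXIST9. At the kinetochore 3 of 7 were called in each line, with CENPA at -0.88 ± 0.22 and -1.05 ± 0.21 and NUF2 at -0.01 ± 0.14 and -0.41 ± 0.14. Genes that did not pass in either line were CCNB2 (-0.19 and -0.42), BUB3 (-0.23 ± 0.10 and -0.32 ± 0.10), UBE2C (-0.62 and -0.84), PTTG1 (-0.18 and -0.42), NDC80 (-0.25 and -0.52), NUF2, SPC25 (-0.30 and -0.15) and SMC2 (0.18 and -0.30).

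**Figure D4:**
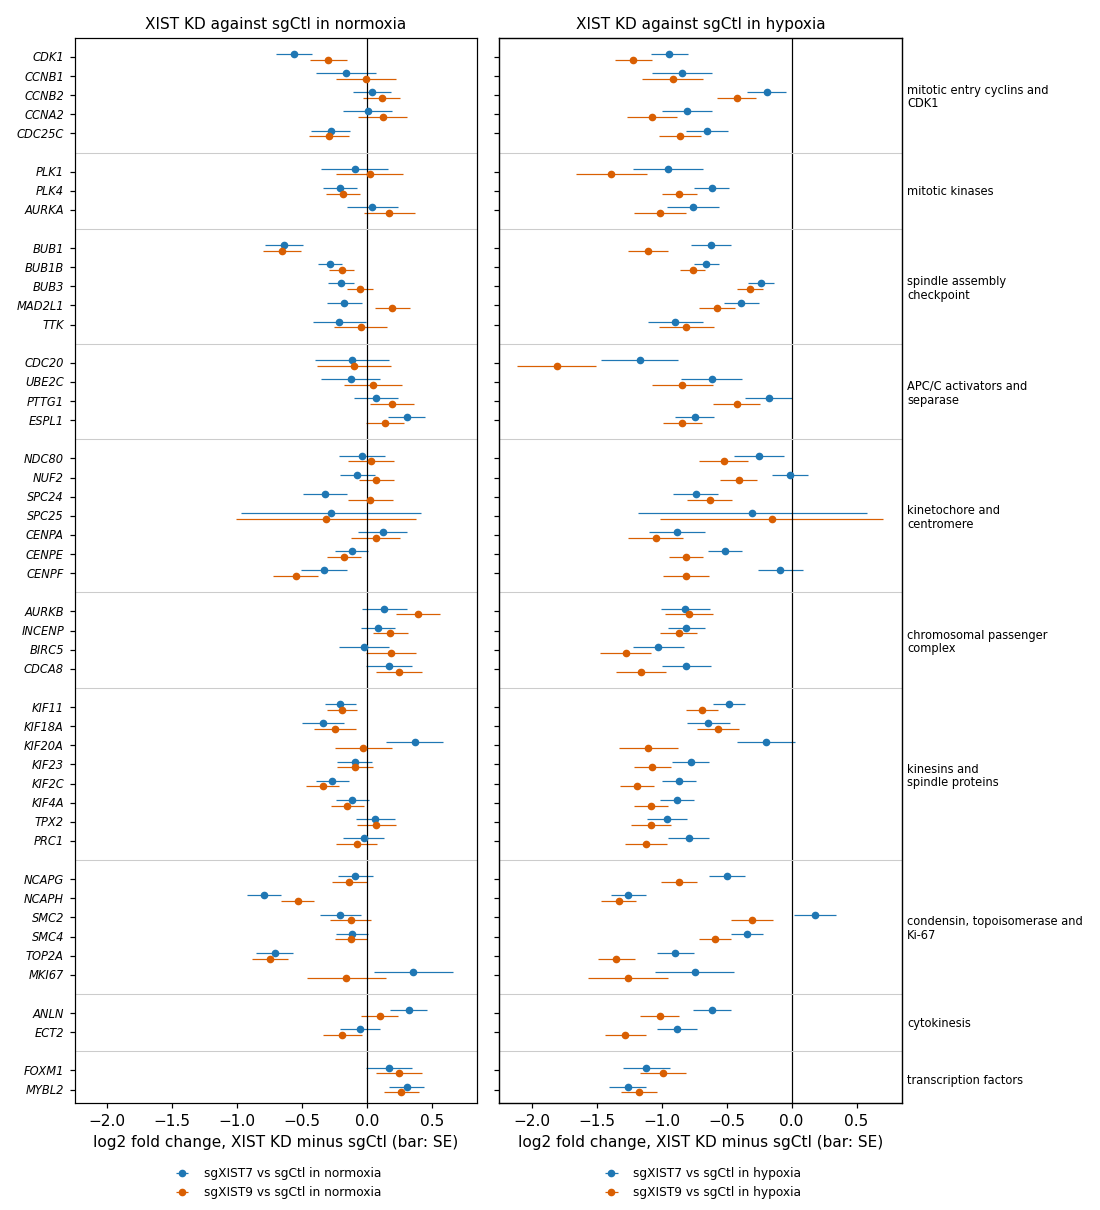
Log2 fold change of each of the 46 genes in sgXIST7 and sgXIST9 against sgCtl (x axis; bars are the standard error), in normoxia on the left and in hypoxia on the right, with the genes sorted by role (y axis). Medians are -0.11 and -0.05 in normoxia and -0.75 and -0.89 in hypoxia for sgXIST7 and sgXIST9.

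Whether the response to hypoxia itself differed between lines was tested by the interaction contrast, the log2 fold change of a KD line minus that of sgCtl. The estimate was negative for 42 of 46 genes in sgXIST7 and for 45 in sgXIST9, with medians of -0.53 and -0.86. It passed the threshold for 4 genes in sgXIST7 (background of lower calls 0.984%) and for 10 in sgXIST9 (0.502%). At an unadjusted p under 0.05 the counts, taken in either direction, were 26 and 41. Of all genes tested, 14% and 9.35% were lower at that p, shares that leave out the higher genes. The contrasts share the 6 sgCtl libraries. With the replicate number as a block, 7 and 14 genes passed.

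MYBL2 had the smallest adjusted p of the 46 in both contrasts. Its interaction was -1.57 ± 0.20 in sgXIST7 (adjusted p = 0.00031) and -1.44 ± 0.19 in sgXIST9 (adjusted p = 0.00063), and it passed the threshold under all 20 alternatives of each, between -1.67 and -1.45 in sgXIST7 and between -1.62 and -1.28 in sgXIST9. FOXM1 was at -1.29 ± 0.25 and -1.23 ± 0.25 (adjusted p = 0.0063 and 0.0097), and TPX2 at -1.02 ± 0.22 and -1.15 ± 0.22 (adjusted p = 0.0093 and 0.0061). ESPL1 was called in sgXIST7 (-1.05 ± 0.21, adjusted p = 0.0074) and stood at -0.98 ± 0.21 in sgXIST9 (adjusted p = 0.012).

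The other genes called in sgXIST9 were 3 of the passenger complex, BIRC5 (-1.46 ± 0.27), CDCA8 (-1.40 ± 0.26) and INCENP (-1.05 ± 0.19), the motors KIF23 (-0.98 ± 0.20) and KIF4A (-0.93 ± 0.18), and the cytokinesis genes ANLN (-1.11 ± 0.21) and ECT2 (-1.09 ± 0.22). Their values in sgXIST7 were -1.0, -0.98, -0.89, -0.68, -0.76, -0.93 and -0.83 in the same order. CDC20 had the most negative estimate in sgXIST9, -1.70 ± 0.42 (adjusted p = 0.025), and was not called. BUB1 (0.02 and -0.45), BUB3 (-0.03 and -0.27) and PTTG1 (-0.24 and -0.62) were not called in either line.

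The number of calls in these contrasts depended on single libraries. Without the third sgCtl library in hypoxia it rose to 16 in sgXIST7 and 22 in sgXIST9. It fell to 1, MYBL2, in both without any 1 of the sgCtl normoxia libraries or the first or second sgCtl hypoxia library. In sgXIST7 it was also 1 without the second or the third of its normoxia libraries or its second hypoxia library, and 2 without its first normoxia library or the third in hypoxia. In sgXIST9 it was 1 without any 1 of its normoxia libraries or its first hypoxia library, and 3 without the third in hypoxia. DESeq2 called 12 genes in sgXIST7 and 26 in sgXIST9, all lower. The shares of all genes that DESeq2 called were not counted.

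**Figure D5:**
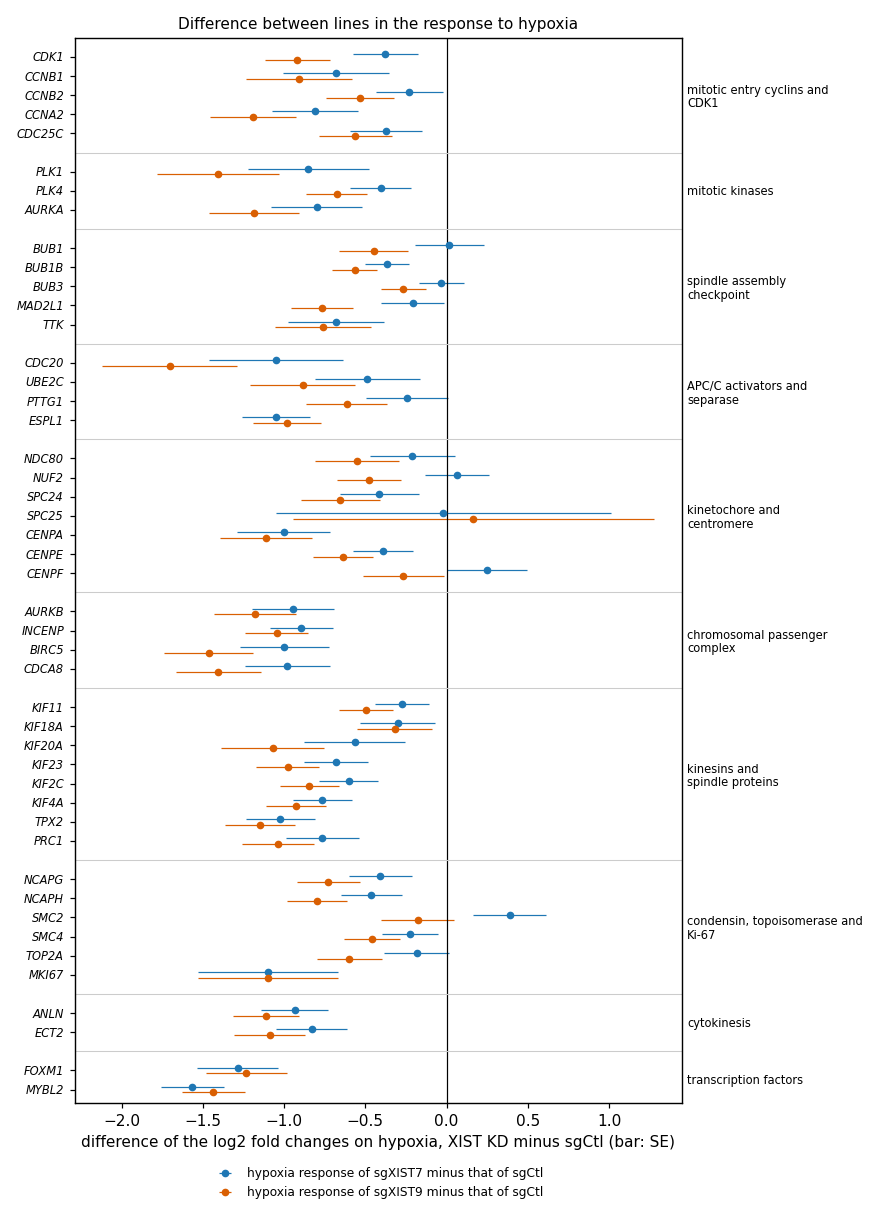
Log2 fold change in hypoxia of sgXIST7 or sgXIST9 minus that of sgCtl (x axis; bars are the standard error) for each of the 46 genes, sorted by role (y axis). The estimate lies below 0 for 42 genes in sgXIST7 and 45 in sgXIST9, and that of MYBL2 is -1.57 and -1.44.

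Between the KD lines, few of these genes were called. In normoxia 0 of 46 genes were called between sgXIST7 and sgXIST9 by edgeR, against a background of 4.97% called in either direction. In edgeR's test 1 gene had an unadjusted p under 0.05, and DESeq2 called 0. No background was counted for these last counts. In hypoxia 1 gene was called (background 8.43%): CENPF, higher in sgXIST7 by 0.73 ± 0.18 on the log2 scale (adjusted p = 0.0086). That call was lost without the third sgXIST7 library (0.37, adjusted p = 0.027) or the first or second sgXIST9 library (0.69, adjusted p = 0.04, and 0.68, adjusted p = 0.039). Without the first sgXIST7 library 2 genes were called, by DESeq2 3, with median-of-ratios factors 2, and in the fit of only the groups compared 0. The estimate was higher in sgXIST7 for 39 of 46 genes, with a median of 0.25, which was 0.12 without the third sgXIST9 library, 0.15 without the third sgXIST7 library and 0.05 without the third library of every hypoxia group. In the response to hypoxia, 0 genes were called between the KD lines by edgeR and 0 by DESeq2. In either direction, 5 had an unadjusted p under 0.05, and the median estimate, sgXIST7 minus sgXIST9, was 0.26. The background shares at hand, 0.087% at the threshold and 9.39% unadjusted, count lower genes only and so do not match that count.

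Within a group, many of these genes were high or low in the same library. In sgCtl in hypoxia, 34 of the 46 genes were highest in the second library and 31 lowest in the third. In sgXIST9 in hypoxia, 31 were highest in the second library and 42 lowest in the third. In sgXIST7 in hypoxia, 31 were highest in the third library and 43 lowest in the second. In normoxia the second library was the lowest for 38 genes in sgCtl and 34 in sgXIST7, and the third for 27 in sgXIST9. The 46 genes are therefore not independent measurements of a line.

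Genes of mitosis outside the 46 mostly fell too. Of 86 further genes of the kinetochore, spindle, condensin and cohesin, the anaphase-promoting complex and the mitotic kinases, 63 were lower and 1 higher in hypoxia in sgCtl, 71 and 3 in sgXIST7, and 70 and 3 in sgXIST9. Of all genes tested, 18.8% were lower and 18.8% higher in sgCtl, 23.2% and 23.5% in sgXIST7, and 19% and 23.1% in sgXIST9. The medians of the 86, -0.95, -1.46 and -1.47, were closer to 0 than those of the 46. DLGAP5, a spindle protein that binds microtubules, was at -2.60, -2.84 and -3.10 in sgCtl, sgXIST7 and sgXIST9, and ASPM, a spindle pole protein, at -2.32, -2.73 and -2.94. In the centromere list CENPP was at -1.94, -2.79 and -3.01. Among the kinases PBK was at -2.33, -2.42 and -3.05.

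The subunits of the anaphase-promoting complex and of cohesin, which are used outside mitosis too, were in lists with medians nearer 0. Whether that use has a part in the size of the change was not tested. Of 17 genes in the list of the anaphase-promoting complex, 8, 9 and 9 were lower and 1 higher in each line. FBXO5 (EMI1, an inhibitor of the complex that is itself cell cycle regulated) was at -1.16, -1.84 and -2.07. Of 15 condensin and cohesin genes 10, 13 and 12 were lower, led by the condensin II subunit NCAPG2 at -1.80, -2.34 and -2.29. In the same comparisons 18.8%, 23.2% and 19% of all genes tested were lower, and 18.8%, 23.5% and 23.1% higher.

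Against sgCtl in hypoxia, 40 of the 86 were lower and 6 higher in sgXIST7, and 35 and 4 in sgXIST9. Of all genes tested, 13.7% were lower and 13.9% higher in sgXIST7, and 8.24% and 9.65% in sgXIST9. WEE1, the kinase that holds CDK1 inactive, was lower, at -1.84 and -1.74, and HJURP, the chaperone that loads CENPA, was lower, at -1.32 in sgXIST9. CKAP2, a spindle protein, was higher in both (1.05 and 1.01), and in sgXIST9 so were the cohesin subunits STAG2 (1.22), which is X-linked, and RAD21 (1.13). In normoxia 4 of the 86 were lower and 2 higher in sgXIST7, and 2 and 2 in sgXIST9, where 6.1% and 6.6% of all genes tested were lower and 7.39% and 6.51% higher.

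Genes of S phase fell as well. Of 20 genes of DNA replication and its regulation 17 were lower in hypoxia in sgCtl and all 20 in each KD line, with medians of -1.26, -1.91 and -1.75. The shares of all genes tested that were lower were 18.8%, 23.2% and 19%. RRM2, a subunit of ribonucleotide reductase, was at -2.19, -2.42 and -2.64, and MCM3, a subunit of the replicative helicase, at -1.62, -2.88 and -2.38. Against sgCtl in hypoxia 16 of the 20 were lower in sgXIST7 and 8 in sgXIST9, with CCNE2 (cyclin E2) at -1.24 and -1.09. The shares of all genes tested were 13.7% and 8.24%.

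Genes of the DREAM complex and the RB family, which include repressors of mitosis genes in resting cells, were more often lower than higher in hypoxia. Of 12 genes 5, 7 and 8 were lower and 1 higher in sgCtl, sgXIST7 and sgXIST9. Of all genes tested, 18.8%, 23.2% and 19% were lower, and 18.8%, 23.5% and 23.1% higher. RBL1 (p107) was at -1.17, -1.30 and -1.34, and LIN52, of the MuvB core, at -1.16, -1.90 and -1.48. Against sgCtl in hypoxia, RB1 and RBL2 (p130) were higher in sgXIST7, by 0.78 and 0.75, while RBL1 was lower, at -0.71 in sgXIST7 and at -0.60 in sgXIST9.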

How the data were processed

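RNA-seq libraries of the OVCAR3-KRAB lines were made after ribosomal RNA depletion with a stranded kit and sequenced in pairs. The authors used Trimmomatic for trimming, HISAT2 for alignment to hg38 and featureCounts for counting, and the deposited values are raw counts per gene, not normalized. Tool versions, the gene annotation and the strand setting are not given in the sources used here. Of 28279 lines, 2 were broken and left out, which left 28277 genes, 5287 of them with 0 counts in all libraries. Total counts had a median of 17629433 per library.

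Genes were kept by edgeR's filterByExpr (minimum count 10, minimum total count 15; 14938 genes). Counts were scaled by TMM (factors 0.859 to 1.115), and 1 quasi-likelihood model with 6 groups (edgeR 4.0.16, R 4.3.3, robust, prior count 0.125) gave 12 comparisons, each with Benjamini-Hochberg adjustment over all genes tested. A gene was called at an adjusted p under 0.01. CPM are TMM-scaled, and RPKM divides them by the exon length in the table. Alternatives were DESeq2 1.42.0, other scaling factors and filters, only the groups compared, a replicate block, another threshold, each library left out, and the third hypoxia libraries left out. The scripts were tested on simulated data. The 46 genes, their roles and all other gene lists were chosen with earlier results of these data known. Values per library are given for CDK1, CCNB1, PLK1, AURKA, BUB3, TOP2A, MKI67, FOXM1, MYBL2 and the 3 genes with the largest called change in each of the first 7 comparisons, and at most 4 called genes are named per other list and comparison. Replicate numbers were not used as pairs in the main tests, and the replicate block was an alternative fit of all groups. Over all genes tested, the deviations of all 3 same-numbered pairs of libraries correlated above 0.1 in 3 comparisons. These were sgCtl in hypoxia and normoxia (0.103 to 0.136), sgXIST7 and sgCtl in normoxia (0.265 to 0.552) and sgXIST9 and sgCtl in hypoxia (0.255 to 0.605). This pairing comes from the data, not from the labels.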

Additional observations from a re-analysis of the deposited data

Results flagged for a closer look

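The change in hypoxia differed between a KD line and sgCtl, by the interaction contrast of edgeR's quasi-likelihood test, for 14 pairs of gene and line. In sgXIST7 the difference on the log2 scale was -1.57 for MYBL2 (adjusted p = 0.00031), -1.29 for FOXM1 (adjusted p = 0.0063), -1.05 for the separase gene ESPL1 (adjusted p = 0.0074) and -1.02 for the spindle gene TPX2 (adjusted p = 0.0093). In sgXIST9 it was -1.44 for MYBL2 (adjusted p = 0.00063), -1.23 for FOXM1 (adjusted p = 0.0097) and -1.15 for TPX2 (adjusted p = 0.0061). The passenger complex genes in sgXIST9 stood at -1.46 for BIRC5 (adjusted p = 0.0061), -1.40 for CDCA8 (adjusted p = 0.0058) and -1.05 for INCENP (adjusted p = 0.0058). The motors KIF23 and KIF4A were at -0.98 (adjusted p = 0.0093) and -0.93 (adjusted p = 0.0085), and the cytokinesis genes ANLN and ECT2 at -1.11 (adjusted p = 0.0057) and -1.09 (adjusted p = 0.0092). Of these, the MYBL2 calls were kept with each library left out in turn.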

How the results depend on the processing

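The counts of genes lower in hypoxia within a line moved by less than 1.5 times under every alternative run (39 to 46 in sgCtl, 43 to 46 in sgXIST7 and 44 to 46 in sgXIST9). No gene value changed from a call in one direction to a call in the other. In fits of only the groups compared, 10 genes were called in sgXIST9 against sgCtl in normoxia (4 higher, 6 lower), 6 and 11 in sgXIST7 and sgXIST9 against sgCtl in hypoxia, 1 between the KD lines in normoxia and 0 in hypoxia, and 1 in the interaction of each KD line with sgCtl. With a log2 fold change past 1 also required, the counts in normoxia were 0 in both KD lines, those in hypoxia 5 in sgXIST7 and 21 in sgXIST9, and that between the KD lines in hypoxia 0. DESeq2 called 3 genes between the KD lines in hypoxia, and 12 and 26 in the interactions of sgXIST7 and sgXIST9. At an adjusted p under 0.05 these counts were 5, 15 and 25, and without the third hypoxia libraries 3, 23 and 24. Median-of-ratios factors gave 2 genes between the KD lines in hypoxia, and upper-quartile factors 5 in the interaction of sgXIST9; upper-quartile factors moved the median of all genes to 0.17 in hypoxia in sgXIST9 (0.09 with TMM). The cause of these changes was not tested. Shares of all genes were counted in the main edgeR fit only, so counts under the alternatives have no matching background.

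With each library left out in turn, counts against sgCtl in normoxia were 2 to 4 (sgXIST7) and 1 to 2 (sgXIST9), those in hypoxia 16 to 32 and 29 to 39, those between the KD lines in hypoxia 0 to 2, and those of the interactions 1 to 16 and 1 to 22, in the same order.

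With the replicate block, the interaction of sgXIST7 had 7 calls and that of sgXIST9 14. It left 44 calls in hypoxia in sgCtl and 4 in sgXIST7 against sgCtl in normoxia, and gave 37 in sgXIST9 against sgCtl in hypoxia. The replicate numbers paired the libraries in these 3 comparisons by the correlation of deviations, and not in the others: over all 45 same-number pairs it was over 0.1 in 20 (range -0.14 to 0.61, median 0.09), and the best match of a library had its own number in 50 of 90.

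Few counts limit SPC25, and 3 libraries per group limit all comparisons.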
